A study of Mus musculus with 6 samples.

Results

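Mir142, Mir146a and Mir451a are 3 microRNA genes of blood and immune cells, and the 5′ ends of polyadenylated RNA at their loci were compared across 6 mouse tissues. The members were chosen from counts already seen in these libraries, and the tags were taken by a rule that keeps every same-strand 5′ end within 2 kb of the mature starts. This gave 643 tags on 33 distinct ends, of 839877 uniquely placed tags in all: 459 at Mir142, 129 at Mir146a and 55 at Mir451a. The 3 genes are among 138 RefSeq mouse microRNA hairpins with at least 1 tag inside the hairpin.

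The libraries came from whole spleen, lung, brain, liver, kidney and ovary of adult mice of the BALB-c background, with 1 library per tissue and no treatment or mutation in the labels. They were made by parallel analysis of RNA ends (PARE): an adaptor was ligated to 5′ monophosphates of polyadenylated RNA, reverse transcription was primed with oligo(dT), and the enzyme MmeI cut a short tag next to the adaptor. No tissue has a replicate, so no test between tissues was made and all intervals are 95% intervals that cover counting error only. How many animals gave each library, and which cells of a tissue gave a tag, are not stated in the labels.

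The lung library was the deepest, with 493121 unique tags, and the others held 29213 to 162270. Levels are given as tags per 1000000 unique tags of a library (CPM), and a count of 0 was read as allowing up to 3 tags, which is 6.08 CPM in lung and 102.7 CPM in ovary. The spleen library stood apart from the rest: 38.2% of its tags held the poly(A) signal AATAAA in their first 20 nt, against 2.27% to 9.71% in the other libraries. Of 15 marker genes listed for blood, lung, liver and kidney cells, 5 could be placed on tags. Hbb-bs, an adult beta-globin gene of red cells, had 13834 CPM in spleen, 7769 in lung, 809 in brain, 783 in kidney, 747 in liver and 377 in ovary. Kap, a kidney tubule gene, had 53941 CPM in kidney, 4662 in lung (2299 tags), 722 in spleen and 89.9 to 317 in brain, ovary and liver. The source of the Kap tags in lung was not tested. In bulk tissue, fewer cells of a type and less RNA per cell cannot be told apart.

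A primary microRNA transcript is cut in the nucleus by Drosha with its partner DGCR8 on each side of the base of a hairpin. The released hairpin is normally cut again by Dicer, and one arm is loaded into an Argonaute protein, where its seed pairs with target messages. The remainder downstream of the hairpin keeps the poly(A) tail of the transcript and begins with a 5′ monophosphate until nucleases remove it, so it belongs to the RNAs that PARE ligates. A mature microRNA has no poly(A) tail, and by the design of the method a tag at a mature start stands for a polyadenylated RNA that begins there. miR-142a is made throughout the blood lineages. miR-146a is induced through NF-κB and represses the signalling proteins Irak1 and Traf6 in innate immune cells. miR-451a belongs to the red cell lineage and is made with miR-144 from a shared transcript; its hairpin is too short for Dicer and is cut by the Argonaute protein Ago2.

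The mature sequences, from RefSeq (GRCm38.p6), show the seeds in capitals (bases 2 to 8); no seed is shared among the 5 arms.
miR-142a-5p: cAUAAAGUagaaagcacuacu
miR-142a-3p: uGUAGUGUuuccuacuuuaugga
miR-146a-5p: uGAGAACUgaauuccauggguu
miR-146a-3p: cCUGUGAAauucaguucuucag
miR-451a: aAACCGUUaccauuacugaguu

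The RefSeq hairpins show where the strongest ends lie: capitals run from the first mature base to the last base before the end that held the most tags at that locus.
Mir142 hairpin: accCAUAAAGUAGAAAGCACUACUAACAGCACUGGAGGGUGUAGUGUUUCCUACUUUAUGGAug
Mir146a hairpin: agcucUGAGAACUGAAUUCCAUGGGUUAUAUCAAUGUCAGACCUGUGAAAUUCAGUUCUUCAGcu
Mir451a hairpin: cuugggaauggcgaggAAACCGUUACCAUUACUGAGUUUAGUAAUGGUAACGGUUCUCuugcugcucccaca

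All 3 loci lie on chromosome 11 of mm9, the build of the files. The first base of miR-142a-5p is at 87570369 on the plus strand, that of miR-146a-5p at 43187958 on the minus strand and that of miR-451a at 77886688 on the plus strand. No mm9 gene annotation was used, so host exons and introns are not given. Every tag on an annotated mature start read as the mature sequence there: 1 of 1 for miR-142a-5p, 2 of 2 for miR-142a-3p, 52 of 52 for miR-146a-5p and 6 of 6 for miR-451a. For Mir142 and Mir146a the end after the hairpin is the first base after the RefSeq 3p arm. RefSeq gives no 3p arm for Mir451a, so its end after the hairpin is the position with the most tags there, picked from these data.

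The deposited tags that begin at these ends are shown because they held most tags of the 3 loci, with capitals for a CNNC motif.
Mir142, chr11:87570428-87570448 plus strand: tgagtgcactgtgggCTTCgg
Mir146a, chr11:43187880-43187900 minus strand: ctgggatagctctgtCATCac
Mir451a, chr11:77886730-77886750 plus strand: ttgctgctcccacaaactgtg
CNNC, with any base for N, is known in many primary microRNAs as a site of the splicing factor SRSF3 a short way downstream of the Drosha cut. It was looked for on the RNA strand with its first base at base 16 or 17 of a tag, and it began at base 16 at Mir142 and Mir146a. The letters are not in that window at Mir451a. Of 447751 distinct ends in the 6 libraries, 10.8% held the motif in that window, as did 18 of 40 other microRNA loci (45%) with a tag on the first base after the 3p arm. A match is a description of letters and does not show binding.

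The hairpins differ in length from mature start to end, but the end fell at the same place in each fold. RNAfold, a program that predicts RNA structure, gave folding energies of -26.9 kcal/mol for Mir142, -26.5 for Mir146a and -43.3 for Mir451a. The base facing the first mature base in the predicted fold lay 57 nt along from the mature start in Mir142, 56 nt in Mir146a and 40 nt in Mir451a, counting the mature start as 1. The end with the most tags began after 59 nt, 58 nt and 42 nt in the same order of genes. In all 3, then, 2 nt lay between the facing base and the end, which is the length of 3′ overhang known for Drosha products. The distance was taken from the annotated starts, although at Mir142 8 tags began 2 nt earlier and 1 on the start. At Mir142 and Mir146a the end also follows the annotated 3p arm directly, so the 2 nt there partly restates the annotation. For Mir146a and Mir451a the first mature base itself was not paired in the fold, and the facing base was read off from the first pair.

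**Figure D1:**
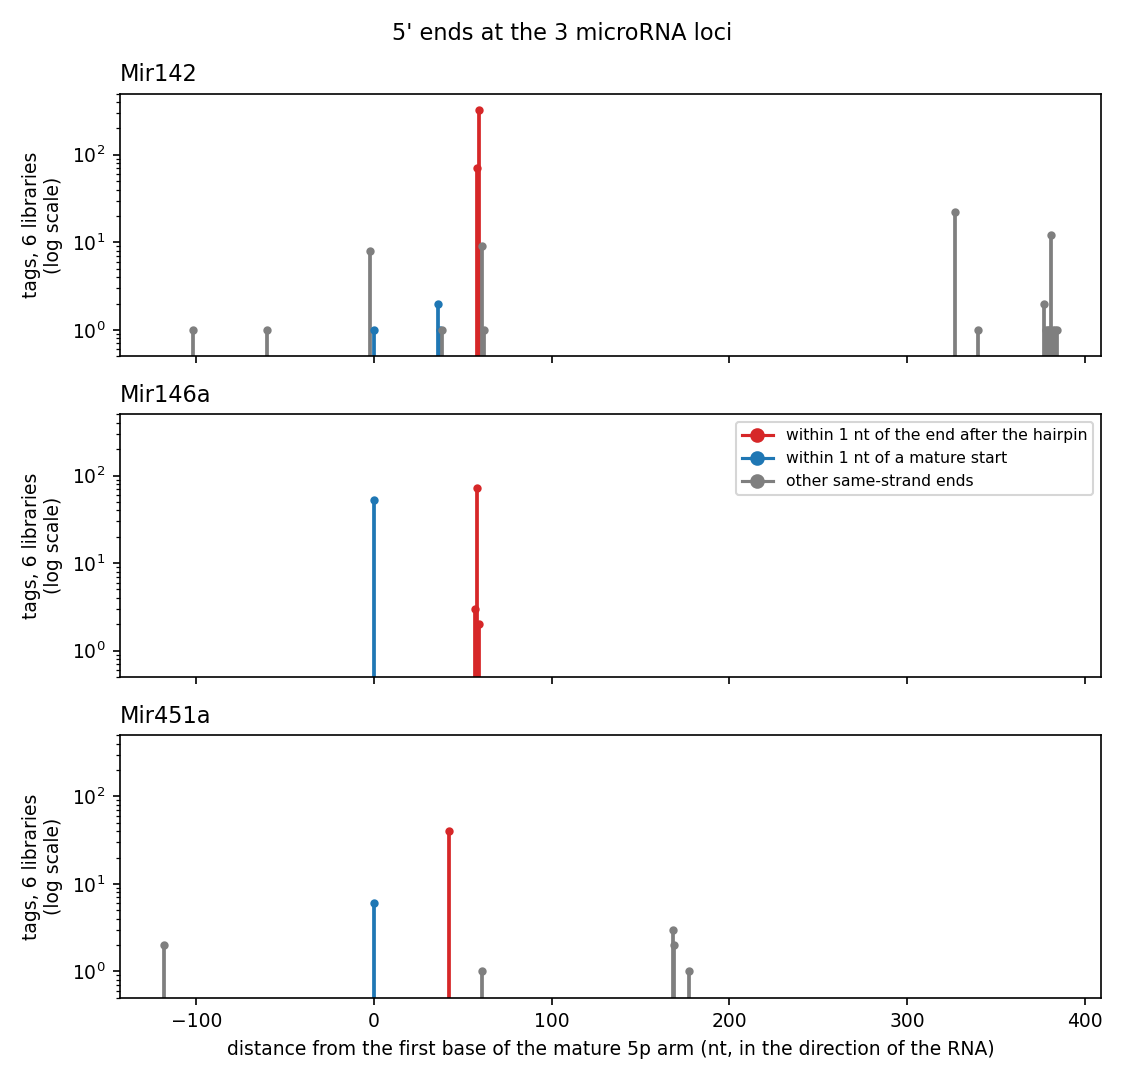
Tags of the 6 libraries summed at each 5′ end (vertical axis, log scale) against the distance from the first base of the mature 5p arm in nt, for Mir142, Mir146a and Mir451a. Red marks ends within 1 nt of the end after the hairpin, blue mature starts and grey other ends; the tallest points are the end after the hairpin with 320, 72 and 40 tags, and 1 spleen tag of Mir142 at -1166 nt lies outside the range drawn.

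At Mir142 nearly all hairpin tags lay after the hairpin. The end there, counted within 1 nt, held 390 of the 459 tags of the locus (85.0%, interval 81.4 to 88.1). The mature starts held 4 tags (0.871%, 0.238 to 2.22): 1 lung tag at miR-142a-5p, and 2 spleen tags and 1 lung tag at miR-142a-3p. The other 65 tags (14.2%, 11.1 to 17.7) lay at all other same-strand ends within 2 kb and were counted as host. Some of these lay close to the hairpin ends, among them 8 tags 2 nt before miR-142a-5p and 9 tags 2 nt after the end. Without the lung library the host share was 22.1% and the mature share 2.33%, and 75.6% still lay after the hairpin. With each distinct sequence counted as 1, the host held 53.97% and the end after the hairpin 39.7%. Few sequences can begin within 1 nt of an end, so such a count lowers that share by its design. All 6 libraries had tags at the end after the hairpin.

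By library, the end after the Mir142 hairpin held 31 tags in spleen (722 CPM), 325 in lung (659 CPM), 6 in ovary (205 CPM), 9 in liver (114 CPM), 17 in kidney (105 CPM) and 2 in brain (59.9 CPM). Spleen and lung were the highest, and their levels could not be told apart at this depth: the ratio of spleen over lung was 1.10 (0.732 to 1.59). Counted against tags without AATAAA in their first 20 nt, which leaves 26410 spleen and 448192 lung tags as depth, the ratio was 1.62 (1.08 to 2.34), and with trimmed mean of M values scaling over all windows it was 0.523 (0.350 to 0.757). Both scalings were chosen after the data had been seen, and the order of spleen and lung turns on them. A bias from zero counts on simulated data had led to a limit on the scaling over all windows. No value of that bias is given here, so it does not decide between the ratios. With the scaling limited to windows with a mean of at least 200 CPM, the ratio was 1.04 (0.697 to 1.51). Spleen over ovary was 3.52 (1.44 to 10.3), and lung over ovary 3.21 (1.46 to 8.81). Among ovary, liver, kidney and brain every interval of a ratio included 1, so their order is not resolved.

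The end after the Mir142 hairpin was not a single base. Of its 390 tags, 320 began on the first base after miR-142a-3p, 70 began 1 nt earlier (17.9%, 14.3 to 22.1) and 0 began 1 nt later. The earlier position took 4 of 31 tags in spleen (12.9%, 3.63 to 29.8), 63 of 325 in lung (19.4%, 15.2 to 24.1), 2 of 17 in kidney and 1 of 6 in ovary. It took 0 of 9 tags in liver and 0 of 2 in brain, counts that allow these shares too. The 320 tags had 8 distinct sequences, 157 of them 20 nt long and 163 of them 21 nt, and 6 tags differed within the first 19 nt. A further 9 tags began 2 nt after the end (7 in lung, 1 in spleen, 1 in kidney) and were counted with the host.

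At the 5′ side of the Mir142 hairpin, more tags began before the annotated start than on it. In lung, 8 tags (16.2 CPM) began 2 nt before the first base of miR-142a-5p, against 1 tag on it, and no other library had a tag at either base. The deposited tags are shown because their bases 2 to 8, in capitals, differ.
begins 2 nt before, chr11:87570367-87570387 plus strand: cCCATAAAgtagaaagcacta
begins at the annotated start, chr11:87570369-87570389 plus strand: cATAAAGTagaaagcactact
All these tags come from 1 library and, by the design of the method, from polyadenylated RNA, which was not tested. They thus give no measure of which 5′ end the mature microRNA had.

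Among host ends of Mir142, one was found in every library. It lay 327 nt after the first base of miR-142a-5p, and it held 17 tags in lung and 1 tag in each of spleen, brain, liver, kidney and ovary.
host end, chr11:87570696-87570716 plus strand: tgggggttcgagaagggagcc
Host tags as a whole numbered 13 in spleen (303 CPM), 46 in lung (93.3 CPM), 3 in kidney and 1 each in brain, liver and ovary. They include tags 2 nt outside either end of the hairpin, of which lung held 8 before it and 7 after it. The ratio of spleen over lung was 3.25 (1.61 to 6.11), and 3.09 (1.53 to 5.81) with trimmed mean of M values scaling. With that scaling over all windows it was 1.55 (0.768 to 2.92). The call that spleen was higher thus turns on the scaling here too.

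Most of the spleen host tags began just before a poly(A) signal. AATAAA is the hexamer that directs cleavage and polyadenylation at the end of a message, and at Mir142 it occurs 384 nt after the first base of miR-142a-5p. Tags that hold the hexamer began 377 to 384 nt along, which is 0 to 7 nt before it, and numbered 9 in spleen, 10 in lung and 0 in the other libraries. The strongest of these positions is shown with the hexamer in capitals, beside the corresponding end at Mir451a, 168 nt after the miR-451a start.
Mir142 host, chr11:87570750-87570770 plus strand: actAATAAAgaatggactggt
Mir451a host, chr11:77886856-77886875 plus strand: ccaaagaAATAAAagataag

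At Mir142, tags with AATAAA made up 9 of 46 locus tags in spleen (19.6%, 9.36 to 33.9; 210 CPM), against 10 of 373 in lung (2.68%, 1.29 to 4.88; 20.3 CPM). The level in spleen was 10.3 times that in lung (3.72 to 28.3), and 4.93 times with trimmed mean of M values scaling over all windows (1.77 to 13.5). In spleen these ends were scattered, with 3 tags on the strongest base and 1 tag on each of 6 others, whereas 8 of the 10 lung tags with AATAAA began on that base. At Mir451a, 5 of 23 spleen tags (21.7%, 7.46 to 43.7; 116 CPM) held AATAAA, and 0 of 25 lung tags did (up to 13.7%). At Mir146a no tag of any library did. Across all ends the same hexamer was in 38.2% of spleen tags and 8.79% of lung tags, and the spleen shares at these loci, 19.6% and 21.7%, lay below that of the whole library at Mir142 and within counting error of it at Mir451a. The reverse complement TTTATT was in 0.438% of the tags of the 6 libraries.

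**Figure D2:**
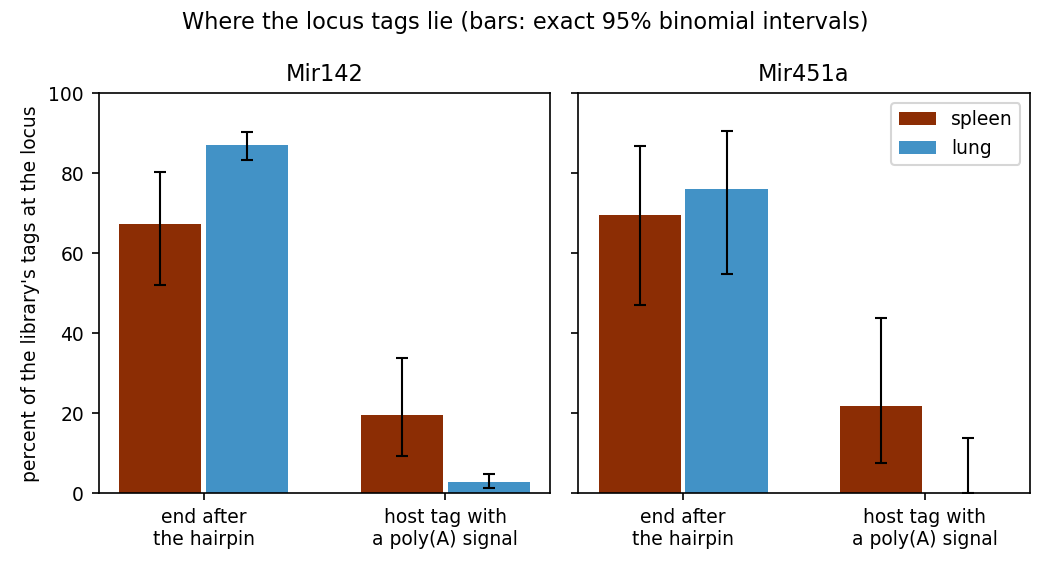
Share of a library's locus tags (percent, vertical axis) at the end after the hairpin and on host tags that hold the poly(A) signal, in spleen (brown, left) and lung (blue, right), for Mir142 and Mir451a, with exact binomial intervals. The share of tags with the signal was 19.6% in spleen and 2.68% in lung at Mir142, and 21.7% in spleen with 0 tags in lung at Mir451a.

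Mir146a was divided between the mature start and the end after the hairpin, with nothing else at the locus. Of its 129 tags, 77 lay after the hairpin (59.7%, 50.7 to 68.2) and 52 at the start of miR-146a-5p (40.3%, 31.8 to 49.3). The lung library decided which was larger: without it 43.3% lay after the hairpin and 56.7% at the mature start. No tag lay at the start of miR-146a-3p and none elsewhere on the host within 2 kb, which allows a share of up to 2.82% for each. The gene thus had no host ends by which the level of its primary RNA could be read.

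The end after the Mir146a hairpin held 6 tags in brain (180 CPM), 64 in lung (130 CPM), 3 in spleen (69.9 CPM), 3 in kidney (18.5 CPM), 1 in liver (12.7 CPM) and 0 in ovary. Brain and lung could not be put in order, with brain over lung at 1.38 (0.490 to 3.18). Spleen over lung was 0.538 (0.108 to 1.65), and 0.512 (0.103 to 1.57) with trimmed mean of M values scaling, and both intervals include 1. With that scaling over all windows it was 0.257 (0.0516 to 0.786), which puts lung above spleen, so the order turns on the scaling. Brain over kidney was 9.72 (2.08 to 60.1), and 13.1 (2.81 to 81.2) with trimmed mean of M values scaling. It was 4.56 (0.974 to 28.2) with the scaling over all windows. Lung over kidney was 7.02 (2.30 to 34.9). Spleen over kidney was 3.78 (0.506 to 28.2), which includes 1. Of the 77 tags, 72 began on the first base after miR-146a-3p, 3 began 1 nt earlier and 2 began 1 nt later.

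The start of miR-146a-5p had tags in 4 libraries and none in brain. It held 7 tags in spleen (163 CPM), 35 in lung (71.0 CPM), 8 in kidney (49.3 CPM), 2 in liver (25.3 CPM), 0 in brain and 0 in ovary. Spleen over kidney was 3.31 (1.02 to 10.4), at the edge of counting error, and 3.02 (0.932 to 9.53) with trimmed mean of M values scaling. Spleen over lung was 2.30 (0.861 to 5.25), and 3.39 (1.27 to 7.75) against tags without AATAAA, so neither order holds under every scaling. All 52 tags began on the same base and had 3 distinct sequences. With each distinct sequence counted as 1 in a library, the levels were 69.9 CPM in spleen, 4.06 in lung, 6.16 in kidney and 25.3 in liver. With no more than 3 sequences to count, these levels follow the depth of the library, and no order of tissues is read from them.

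Set against each other, the end after the hairpin took 3 of 10 Mir146a tags in spleen (30.0%, 6.67 to 65.2), 64 of 99 in lung (64.6%, 54.4 to 74.0), 6 of 6 in brain (54.1 to 100) and 3 of 11 in kidney (27.3%, 6.02 to 61.0). Brain tags lay only after the hairpin, whereas kidney tags lay mostly at the mature start. The intervals of these 4 libraries overlap, but overlap does not decide whether shares differ, and the difference was not tested. Summed over both positions, the locus had 233 CPM in spleen, 201 in lung, 180 in brain, 67.8 in kidney, 38.0 in liver and 0 in ovary. Ovary gave no Mir146a tag, and at its depth up to 102.7 CPM is allowed.

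**Figure D3:**
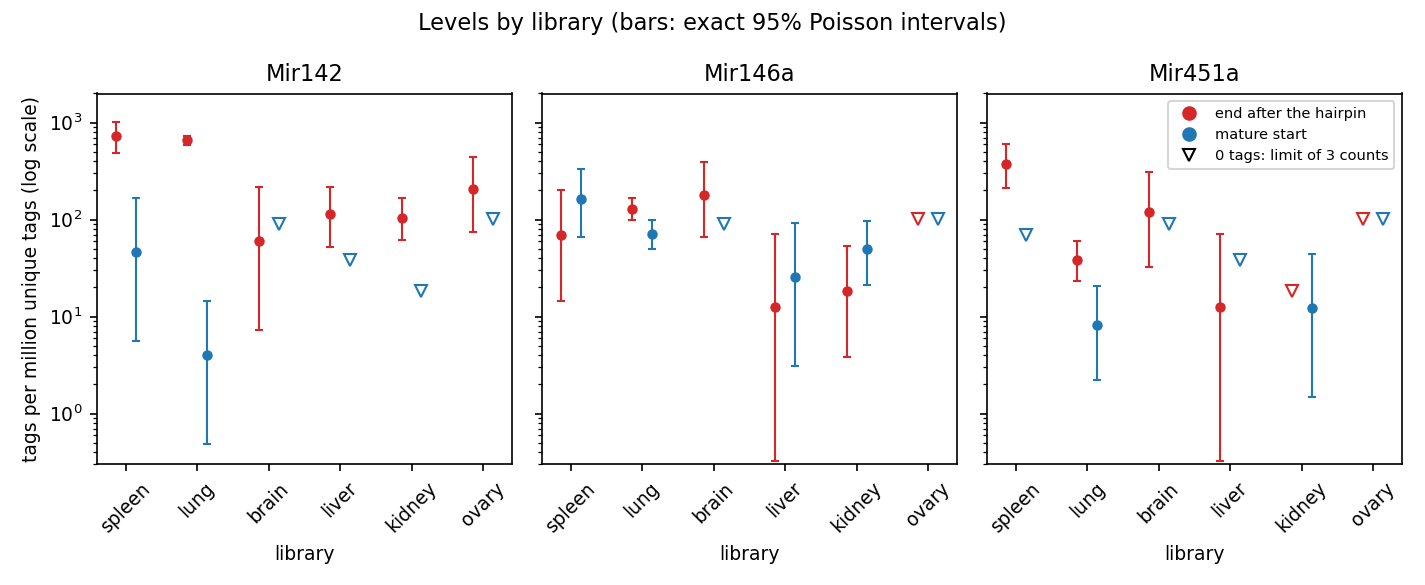
Level at the end after the hairpin (red) and at mature starts (blue) in tags per 1000000 unique tags (log scale) in each of the 6 libraries, with exact Poisson intervals; open triangles stand at the limit that 0 tags allow. For Mir142 the red points are highest in spleen (722) and lung (659), for Mir451a in spleen (373), and for Mir146a in brain (180) and lung (130).

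Mir451a had its highest level in spleen. The end after the hairpin held 16 tags in spleen (373 CPM), 4 in brain (120 CPM), 19 in lung (38.5 CPM), 1 in liver (12.7 CPM), 0 in kidney and 0 in ovary. Spleen over lung was 9.67 (4.65 to 19.9). The ratio stayed above counting error with trimmed mean of M values scaling over all windows (4.62, 2.22 to 9.48) and against tags without AATAAA (14.3, 6.87 to 29.3). Spleen over brain was 3.11 (1.003 to 12.8), at the edge of counting error, and 2.10 (0.678 to 8.64) with trimmed mean of M values scaling. Brain over lung was 3.11 (0.769 to 9.36), and 4.38 (1.08 to 13.2) with that scaling. Against the 3 tags that a count of 0 allows, spleen was at least 20.2-fold higher than kidney and at least 3.63-fold higher than ovary with its 16 tags taken as exact. With the counting error of both libraries, the lower limits of these ratios were 14.6 and 2.62.

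All 40 tags of this end, in 4 libraries, began on the same base. They made up 72.7% of the 55 tags of the locus (59.0 to 83.9). The start of miR-451a held 6 tags (10.9%, 4.11 to 22.2), 4 in lung (8.11 CPM) and 2 in kidney (12.3 CPM). Spleen, the library with the highest CPM after the hairpin, had 0 tags at the mature start, which allows up to 69.9 CPM. The 9 host tags (16.4%) were 7 in spleen and 2 in lung; apart from the 5 before AATAAA, the spleen host tags lay 61 and 177 nt after the start of miR-451a, with 1 tag each.

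The 2 lung host tags lay 118 nt before the start of miR-451a. This is 1 nt after the first base behind miR-144-3p, the neighbouring microRNA of the shared transcript, by the distances in RefSeq. No tag lay at the mature starts of Mir144. The end after the Mir451a hairpin held 40 tags, 19 of them in lung. Mir144 lies upstream of Mir451a on the shared transcript, so the counts after the hairpins are not like measures of processing.

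Genes of blood cells moved with these levels only in part. Between spleen and lung, Hbb-bs had 13834 CPM in spleen and 7769 in lung, and Hbb-bt, the other adult beta-globin gene, had 5124 CPM in spleen and 965 in lung. Brain held 120 CPM of the end after the Mir451a hairpin on 4 tags, with Hbb-bs at 809 CPM, whereas kidney had 0 tags there with Hbb-bs at 783 CPM. S100a8, a granulocyte gene, had 326 CPM in spleen, 329 in lung, 12.7 in liver, 12.3 in kidney and 0 in brain and ovary. Lyz2, a gene of macrophages and neutrophils, had 23.3 CPM in spleen and 296 in lung. The part of blood left in each tissue in the levels of the 3 genes was not tested.

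Against other loci, the spread of tags over tissues was described by Pearson's correlation of log2(CPM + 10) over the 6 libraries, which share depth and scaling. Among 54 other microRNA loci with at least 20 tags within 2 kb, Mir223, another microRNA of myeloid cells, was most like Mir142 (r = 0.906). Mir223 held 31 tags in lung (62.9 CPM), 2 in spleen (46.6 CPM), 1 in kidney (6.16 CPM) and 0 in brain, liver and ovary. Its spleen level lies below the 69.9 CPM that a count of 0 allows there, and the limit is 89.9 CPM in brain and 102.7 CPM in ovary. Next most like Mir142 were Mir7079 (0.853) and Gm24148 (0.849). Mir21a was most like Mir146a (0.890) and also most like Mir451a (0.687). After it came Mirlet7i (0.641) and Mir223 (0.640) for Mir146a, and Mir5099 (0.659) and Mirlet7i (0.594) for Mir451a. Among the members, r was 0.837 for Mir146a with Mir451a, 0.527 for Mir142 with Mir451a and 0.365 for Mir142 with Mir146a. Mir21a had 105 to 186 CPM outside ovary. In ovary Mir21a, Mir146a and Mir451a all had 0 tags, which allows up to 102.7 CPM there. How far the r values among these loci rest on ovary was not tested.

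Mir142 and Mir146a were set beside the other hairpins that have a RefSeq 3p arm and at least 20 tags at mature starts and after the hairpin together, 30 in all. In 11 of the 30 (36.7%) over 50% of these tags lay after the hairpin, and the median share was 35.9%. Both members were among the 11, with 99.0% at Mir142 and 59.7% at Mir146a (43.3% without lung); they were chosen from these counts, so nothing is read from that. By tags after the hairpin Mir142 ranked 3 and Mir146a ranked 6 of the 30, and by share they ranked 4 and 10. Mir126a, a microRNA of endothelial cells, was close to Mir142 in these 2 classes only, with 335 tags after the hairpin and 3 at mature starts. Of its 1251 tags within 2 kb, 339 lay within 60 nt of the hairpin, against 414 of 459 at Mir142. Most Mir126a tags thus lay elsewhere at the locus, unlike those of Mir142. Mir155, an immune cell microRNA, had 12 tags in kidney (74.0 CPM) and 5 in lung (10.1 CPM) within 2 kb. It had none in spleen, brain, liver or ovary. The lack of a tag in spleen still allows up to 69.9 CPM there, so no contrast with the 3 members is read from it.

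**Figure D4:**
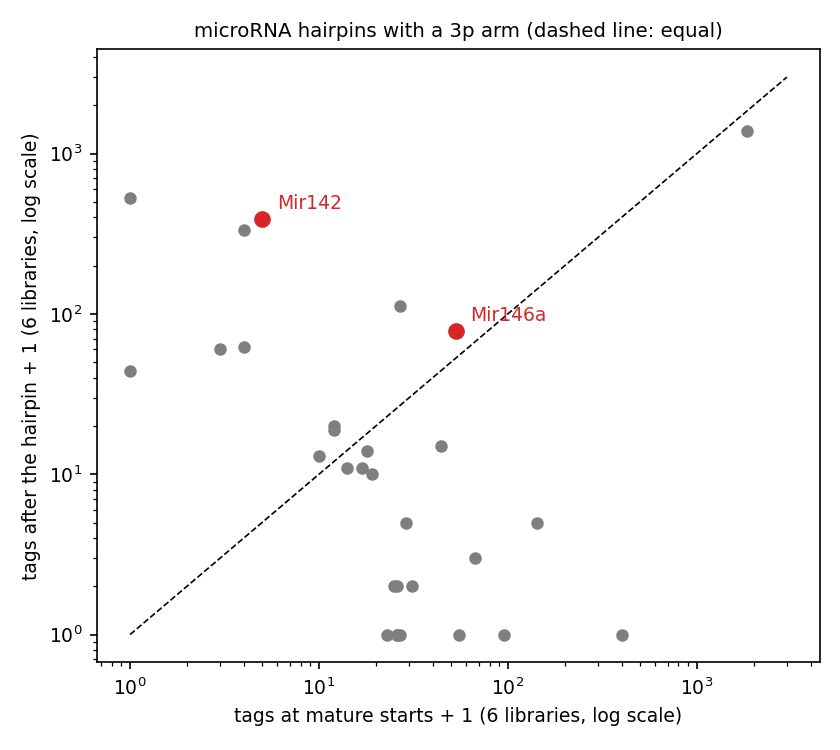
Tags after the hairpin against tags at mature starts, each plus 1 and summed over 6 libraries (log scales), for 30 microRNA hairpins with a 3p arm; the dashed line marks equal numbers. Mir142 (390 tags after the hairpin, 4 at mature starts) lies far above the line and Mir146a (77 and 52) just above it.

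Among all parts of the genome with enough tags, the members' windows were read against fixed windows of 2 kb per strand, of which 6960 held at least 20 tags. In 1177 of these (16.9%) the spleen level was at least 2-fold the lung level. The median spleen level over the 6960 windows was 23.3 CPM, the level of 1 tag. That is below the 69.9 CPM that a count of 0 allows in spleen, so many of these ratios rest on few spleen tags. Of the members' windows 1 of 3 was past 2-fold: Mir451a at 10.6 (5.73 to 19.4), with Mir142 at 1.39 (0.993 to 1.89) and Mir146a at 1.16 (0.540 to 2.22). In 331 windows (4.76%) at least 50% of the tags began on 1 base, as they did in 3 of 3 members' windows, with 69.9% at Mir142, 55.8% at Mir146a and 72.7% at Mir451a. The members had been chosen with these counts known, and both statements are descriptions.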

How the data were processed

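PARE tags of 6 libraries were analysed, 1 per tissue, each grouped by the tissue in its label. Per the submitters' processing notes, alignment was by Bowtie against build mm9, with version and settings not given in the sources used here. The deposited tables give 1 line per tag sequence with its location, strand and read count, per the authors' accompanying description. The deposited score is a display value (70 per read up to 999) and was not used. Minus-strand sequences were turned to RNA orientation. Sequences listed at several locations were left out, which removed 1 spleen tag at these loci. PCR reads without molecular identifiers are not independent molecules.

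The read counts, as the authors deposited them, were summed within 1 nt of a mature start or of the end after the hairpin; all other same-strand ends within 2 kb were called host. CPM had exact Poisson intervals, shares exact Clopper-Pearson intervals, and ratios exact conditional binomial intervals (Python 3.11.15, scipy 1.17.1); trimmed mean of M values scaling used 487 windows with a mean of at least 200 CPM. RefSeq hairpins (1005) were placed by tags matching at least 18 nt, and folded with RNAfold 2.7.2. The ratio and scaling steps were tested on simulated data, the scaling for spleen and lung only. The limit of 200 CPM was set after that test had shown a bias from zero counts, so passing the test is no independent check of it. As kept, the test ran only the form with that limit, and no value of the bias is given. Its simulated spleen and lung libraries differed only in chosen windows. Scaling over all windows is the form without that limit. The named loci are the 3 genes, the 5 ends with most tags at each, neighbouring microRNAs, the 3 most correlated loci and the listed markers. Mir126a was also singled out after its values were seen, for its likeness to Mir142 in tags at mature starts and after the hairpin. Of 17 marker microRNAs in RefSeq, 4 had a tag in the hairpin. The members and lists were chosen with earlier results of these data known.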

Additional observations from a re-analysis of the deposited data

Results flagged for a closer look

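On the strand opposite Mir451a, which the comparisons above do not use, 29 tags lay on 26 distinct ends within 2 kb, 213 to 1389 nt beyond the start of miR-451a; 0 such tags lay at Mir142 and 0 at Mir146a. They numbered 1 in spleen, 17 in lung, 1 in brain, 4 in liver, 4 in kidney and 2 in ovary, which is 23.3, 34.5, 30.0, 50.7, 24.7 and 68.5 CPM in the same order. All 6 libraries had tags there, whereas the Mir451a strand had none in ovary. In RefSeq the gene Eral1, a mitochondrial ribosome assembly factor, lies on that strand, with its nearest base 190 nt from the start of miR-451a.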

How the results depend on the processing

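Counting distinct sequences put more of Mir142 on the host than after the hairpin. Few sequences can begin within 1 nt of an end, whereas host covers all other ends within 2 kb. By its design this setting lowers counts at single ends, and no place of the RNA is read from it. At Mir142 the share after the hairpin was 69.7% on the exact base, 39.7% with each distinct sequence counted as 1 and 75.6% without lung; the host share was 29.6%, 53.97% and 22.1% in these settings and 10.2% within 2 nt; the mature share was 2.83% within 2 nt, 6.35% by distinct sequences and 2.33% without lung. At Mir146a, leaving out lung put 56.7% of tags at the mature start and 43.3% after the hairpin, the opposite order, and the exact base left 3.88% as host. At Mir451a, distinct sequences gave 46.2% after the hairpin and 38.5% host. Tags at mature starts numbered 13 at Mir142 within 2 nt, and 8 at Mir146a and 2 at Mir451a by distinct sequences. The ratio of spleen over lung after the Mir142 hairpin was 0.523 with trimmed mean of M values over all windows and 1.62 against tags without AATAAA, and the cause was not tested. No value is given here for the bias from zero counts on simulated data that led to a limit on scaling over all windows. Limited to windows with a mean of at least 200 CPM, the scaling gave 1.04 (0.697 to 1.51). With at least 10 tags per window, 2259 of 12337 windows (18.3%) were past 2-fold, against 1177 of 6960 (16.9%) with at least 20. Of 100 levels of single libraries checked, 5 moved beyond their counting interval: 3 by distinct sequences, 1 on the exact base and 1 within 2 nt. No paired analysis was possible because each tissue has 1 library. Low depth limits every 0 in ovary, brain and spleen.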
